A study of Mus musculus with 8 samples.

Results

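RNA-seq libraries of bone marrow progenitors from WT and Ripk3-KO mice were examined for 8 transcription factors of granulocyte and monocyte fate. These were Cebpa, Cebpb, Cebpd and Cebpe of the C/EBP family, Spi1, which encodes PU.1, the zinc-finger repressor gene Gfi1, and the interferon regulatory factor genes Irf8 and Irf4. They were taken by gene symbol from 29955 names listed for every library, and all 8 were found, Spi1 under its older symbol Sfpi1. Of the 8 factors, 5 had lower transcript levels in LSK than in LK cells of WT mice, and Gfi1 was the only one of the 8 called between the genotypes, with a higher level in Ripk3-KO than in WT LSK cells. The Gfi1 call was lost when any single LSK library was left out, and genotype and sex cannot be told apart in these libraries.

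There were 4 groups of 2 libraries, numbered 1 and 2. LSK cells were sorted as Lin- Sca1+ Kit+ and hold stem cells and multipotent progenitors, and LK cells were labelled Lin- Kit+ (without Sca1 in the study's text) and hold mainly committed myeloid and erythroid progenitors. WT mice and mice with the Ripk3 deletion carried the same strain label, CD57BL6/J. The labels record no treatment, whereas the study's text describes fractionated X-ray irradiation of the mice of both genotypes before collection, so all groups may share it. Neither the age and sex of the mice nor whether a library held 1 or several animals is stated in the sources used here, and p-values measure only the spread between these libraries.

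PU.1 and C/EBPα act at the entry to the myeloid lineages, where PU.1 opposes the erythroid factor GATA1 and C/EBPα drives the step to granulocyte-monocyte progenitors. Gfi1 represses monocytic genes and favors granulocytes, IRF8 favors monocytes and dendritic cells, and C/EBPε switches on the genes of secondary granules as neutrophils mature. C/EBPβ serves granulocyte output in emergencies, C/EBPδ is induced by inflammatory cytokines, and IRF4 works partly beside IRF8 in dendritic cells and B cells.

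The deposited values, called signal here, are reads per gene scaled within each population and not divided by gene length. Libraries held 9782166 to 16280811 reads. Ripk3 signal was 162 and 168 in WT LSK cells, 3.38 and 1.08 in Ripk3-KO LSK cells, 144 and 150 in WT LK cells and 16.2 and 10.6 in Ripk3-KO LK cells, which fits the labels. Xist was at 108 to 413 in the 4 WT libraries and at most 1.27 in the Ripk3-KO libraries, while Y-linked Eif2s3y was at 0 in the former and at 47.0 to 98.8 in the latter, so genotype and sex cannot be told apart. Ly6a, the Sca1 gene, was at 123 to 207 CPM (reads scaled to a common library size) in LSK and at most 4.68 CPM in LK libraries when all libraries were scaled together. In bulk samples, fewer cells of a type and less RNA per cell cannot be told apart.

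**Figure D1:**
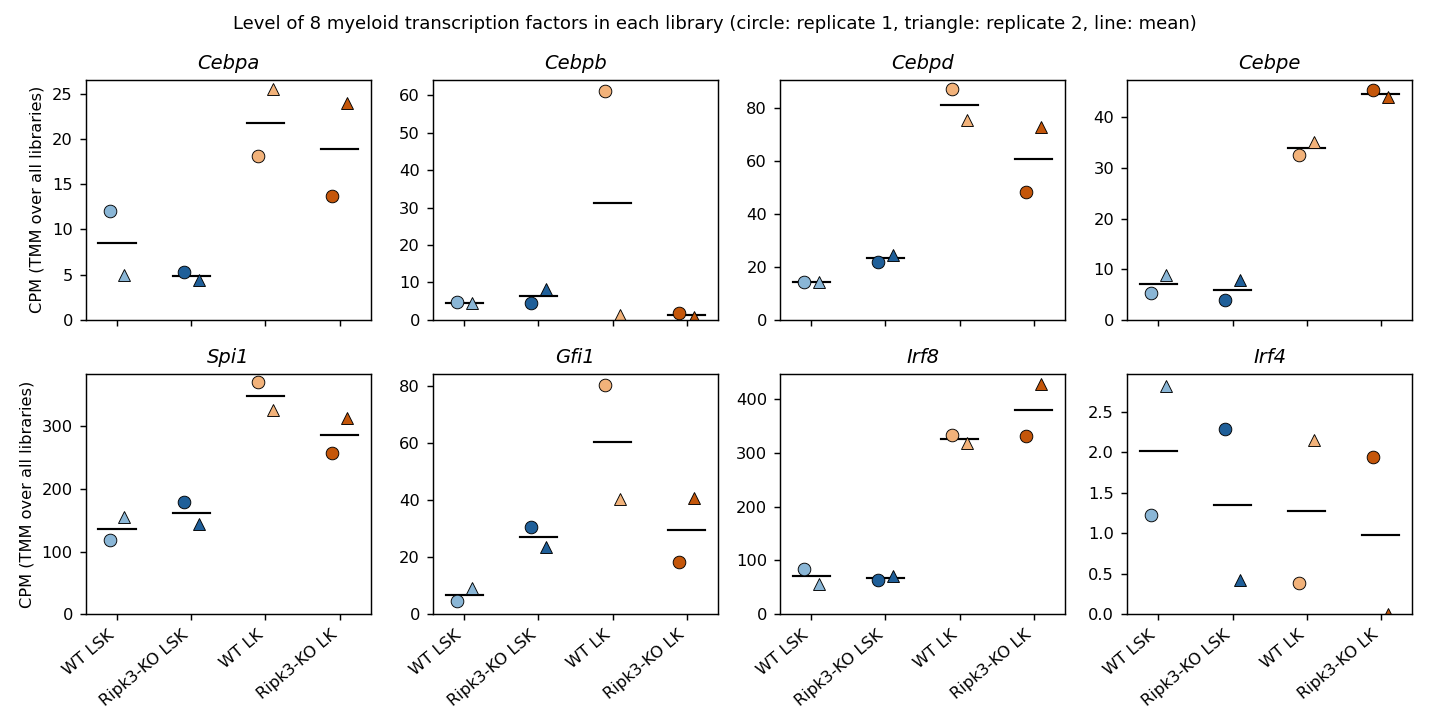
Level of each of the 8 factors in every library, in CPM after scaling all 8 libraries together (vertical axis, linear from 0), by group (horizontal axis). Circles are replicate 1, triangles replicate 2 and lines the mean of 2. Irf8 runs from 56.1 to 84.6 in LSK and from 317 to 427 in LK libraries, and 1 of the 4 LK libraries stands far above the other LK libraries for Cebpb.

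To compare levels between genes, CPM was divided by the exon length of each gene in kilobases, taken from GENCODE M21. The annotation used for counting is not given, so ranks between genes rest on these lengths. Spi1 was the most abundant of the 8 factors in every library, at 44.1 to 66.2 CPM per kb in LSK and 95.3 to 137 in LK libraries. Irf8 came second, with 7.95 to 12.0 CPM per kb in LSK and 45.0 to 60.5 in LK libraries, apart from Ripk3-KO LSK 1, where Gfi1 (9.56) was above Irf8 (8.94). Irf4 was lowest in every library, at 0 to 0.575 CPM per kb, with at most 32 reads in any library. The other LSK levels lay together, and their ranges overlapped: 1.48 to 9.56 for Gfi1, 1.69 to 4.56 for Cebpa, 3.02 to 5.40 for Cebpb, 3.21 to 7.11 for Cebpe and 3.77 to 6.56 for Cebpd. In LK libraries Cebpe (26.3 to 36.5) was above Cebpd (12.9 to 23.2) and Cebpa (5.19 to 9.67), and these 3 ranges did not overlap. Gfi1 (5.81 to 25.2) ran across the ranges of Cebpd and Cebpa and was above Cebpd in WT LK 1. Cebpb had no fixed place there, since it was at 40.6 in WT LK 1 and at 0.520 to 1.25 in the other LK libraries. Without division by length, Cebpd was above Cebpe in LK libraries, at 48.1 to 86.9 against 32.6 to 45.3 CPM. Their order thus rests on the exon lengths used, 3746 bases for Cebpd and 1241 for Cebpe.

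LSK and LK cells were compared to show how the factors stood along the path from multipotent to committed progenitors. In WT cells, Irf8, Cebpd, Spi1, Gfi1 and Cebpe were called lower in LSK than in LK cells, and no factor was called higher. That was 5 of 8 factors, where 14.8% of 15950 genes tested were called lower and 9.16% higher. The largest of these differences was that of Gfi1, which was at 4.71 and 9.09 CPM in WT LSK and at 80.4 and 40.5 CPM in WT LK libraries, a log2 fold change of −2.94 (SE 0.43) with an adjusted p of 4.18e-05 by limma. Cebpa was at 12.0 and 5.0 CPM in WT LSK and at 18.1 and 25.5 CPM in WT LK libraries, and did not pass the threshold (log2 fold change −1.35, adjusted p = 0.0572).

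Irf8, the monocyte and dendritic factor, was at 84.6, 56.1, 63.1 and 71.4 CPM in the LSK libraries, WT before Ripk3-KO, and at 332, 317, 331 and 427 CPM in the LK libraries. All LK libraries were above all LSK libraries, and the log2 fold change of Irf8 came to −2.22 (SE 0.22) in WT cells, with an adjusted p of 1.73e-07, and to −2.47 (SE 0.22) in Ripk3-KO cells, with an adjusted p of 2.47e-08. The sequence upstream of its start on GRCm38 (chr8:120736108-120736357, plus strand, from RefSeq) is shown because Irf8 separated the populations with the lowest adjusted p of the 8 factors in both genotypes. Capitals mark GATT, the reverse of AATC, the core letters bound by Gfi1. This core was found in 69.0% of 32851 mouse promoter windows of the same length on either strand, so its presence is common.
Irf8 upstream: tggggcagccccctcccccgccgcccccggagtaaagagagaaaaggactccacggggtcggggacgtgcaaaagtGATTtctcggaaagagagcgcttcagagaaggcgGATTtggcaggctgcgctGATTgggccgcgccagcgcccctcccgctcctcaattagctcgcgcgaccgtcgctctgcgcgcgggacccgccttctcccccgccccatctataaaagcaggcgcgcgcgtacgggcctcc

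In Ripk3-KO cells, Irf8, Cebpe, Cebpd, Spi1 and Cebpa were called lower in LSK than in LK cells, again 5 of 8 factors and none called higher, where 12.2% of 15237 genes tested were lower and 7.95% higher. Cebpe, the late granulocytic member, was at 3.99 and 7.96 CPM in Ripk3-KO LSK and at 45.3 and 44.0 CPM in Ripk3-KO LK libraries (−2.77 on the log2 scale, SE 0.43, adjusted p = 6.52e-05). Gfi1 was at 30.5 and 23.5 CPM in Ripk3-KO LSK and at 18.5 and 40.7 CPM in Ripk3-KO LK libraries, with the LSK values inside the LK range (log2 fold change −0.04, 95% interval −0.93 to 0.86, adjusted p = 0.972). Spi1 was at 178 and 144 CPM in Ripk3-KO LSK against 257 and 313 CPM in Ripk3-KO LK libraries (log2 fold change −0.82, adjusted p = 0.00466). Both population comparisons use libraries that also enter the genotype comparisons below.

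Over both genotypes, Cebpa, Cebpd, Cebpe, Spi1 and Irf8 had no overlap between the 4 LSK and the 4 LK libraries, which was 5 of 8 factors, where 27.7% of 15950 genes did not overlap. Cebpb, Gfi1 and Irf4 overlapped. Cebpb was not called in WT (log2 fold change −1.08, adjusted p = 0.4) or Ripk3-KO cells (1.65, adjusted p = 0.231), and without WT LK 1 its WT difference turned to 1.30. With the deposited values, scaled separately in the populations, or without Ripk3-KO LSK 2, the number called in Ripk3-KO cells fell from 5 to 3, and without Ripk3-KO LK 2 to 2, while in WT cells it was 5 or 6 under every alternative tried.

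**Figure D2:**
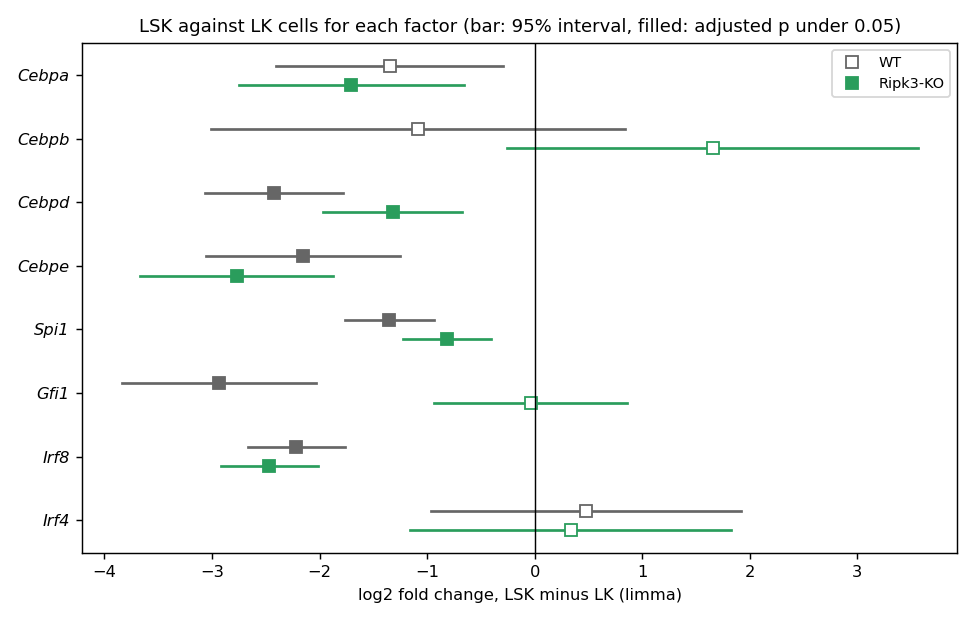
log2 fold change of LSK against LK cells (horizontal axis; negative values are lower in LSK) for each factor in WT (grey) and Ripk3-KO cells (green), with 95% intervals as bars and filled squares for adjusted p under 0.05 in limma. Irf8, Cebpd, Cebpe and Spi1 are lower in LSK cells in both genotypes, and the Gfi1 difference is −2.94 in WT and −0.04 in Ripk3-KO cells.

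The genotypes were then compared within each population. In LSK cells, Gfi1 was the 1 factor of 8 called, and 2.16% of 16817 genes tested were called. Its signal was 5.36 and 10.4 in the WT against 34.4 and 26.9 in the Ripk3-KO libraries, corresponding to 54 and 100 against 428 and 275 reads. Both Ripk3-KO libraries were above both WT libraries, and the log2 fold change was 1.89 (SE 0.43, 95% interval 0.98 to 2.79, adjusted p = 0.0238 by limma and 0.0446 by edgeR). The call was lost, with adjusted p between 0.0708 and 0.17, when any 1 of the 4 LSK libraries was left out, and with adjusted p of 0.0975, 0.153 and 0.072 without the filter on low values, without the trend in the variance and with LSK cells fitted alone, while the log2 fold change stayed between 1.47 and 2.30 in all alternatives.

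In LK cells Gfi1 ran the other way without passing the test. Its signal was 70.5 and 35.9 in the WT against 16.3 and 35.5 in the Ripk3-KO libraries, so that the second libraries of the genotypes were nearly equal (log2 fold change −1.03, SE 0.43, adjusted p = 0.629). The replicates of each genotype differed by 0.956 and 1.08 on the log2 scale, and 13.3% and 9.58% of genes tested differed by more between those replicates. The difference between the genotype effects in LSK and LK cells was 2.92 on the log2 scale (SE 0.61, adjusted p = 0.0318 by limma), with Gfi1 the 1 factor of 8 called, where 0.358% of 15901 genes were called. By edgeR the adjusted p was 0.072, and it lay between 0.0645 and 0.442 without any 1 of the 4 LSK libraries, without WT LK 1 or without Ripk3-KO LK 1. This interaction and the smaller LSK to LK difference of Gfi1 in Ripk3-KO than in WT cells are the same contrast of the same libraries and are not separate evidence.

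Gfi1 lies on chr5:107716657-107726036 of GRCm38, on the minus strand, and its exons partly overlap the opposite-strand transcript A430072P03Rik, which was not matched in the files. The 149 bases directly upstream of 1 of its RefSeq starts (chr5:107725806-107725954, minus strand) are shown because Gfi1 carried the genotype difference. By GENCODE this stretch lies inside the gene span and outside its exons. Capitals mark TTGCTGAA, a match to the C/EBP letters TTGCNNAA that begins 143 bases before that start. The window of another RefSeq start of Gfi1 (chr5:107724344-107724593, minus strand) held 0 matches to the motifs searched. Such a match on either strand was found in 9.56% of promoter windows, and it is a description of letters only.
Gfi1 upstream: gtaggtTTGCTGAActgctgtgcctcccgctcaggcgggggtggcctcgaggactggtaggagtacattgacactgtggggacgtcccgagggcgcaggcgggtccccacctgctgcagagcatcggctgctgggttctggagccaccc

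**Figure D3:**
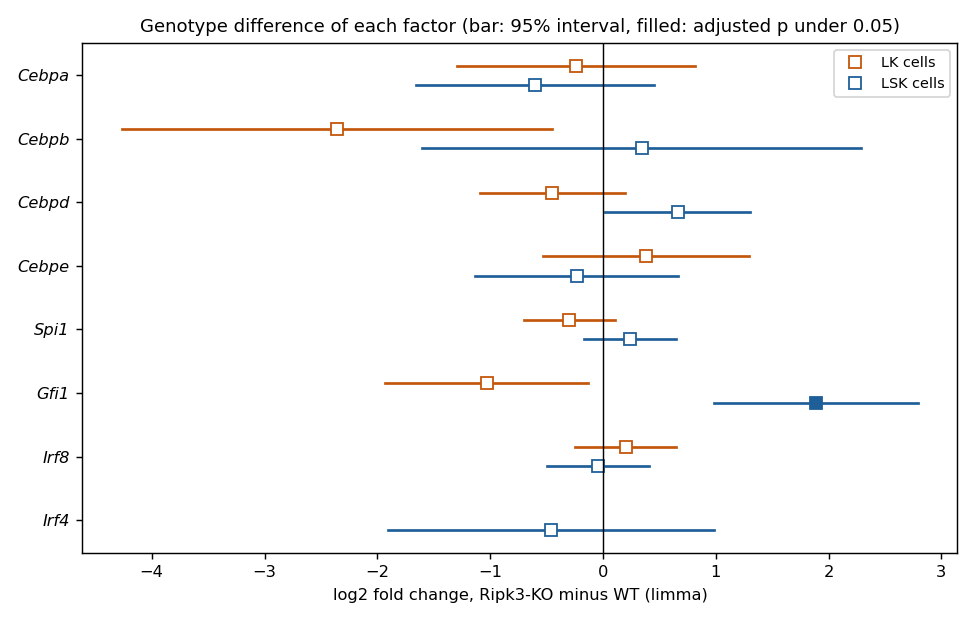
log2 fold change of Ripk3-KO against WT cells (horizontal axis) for each factor in LK (orange) and LSK cells (blue), with 95% intervals as bars and filled squares for adjusted p under 0.05 in limma. Gfi1 in LSK cells, at 1.89, is the 1 filled square, and Irf4 was not tested in LK cells.

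Irf8, which opposes Gfi1 in the choice between monocytes and granulocytes, was at similar levels in both genotypes. In LSK cells its signal was 96.4 and 63.9 in WT against 71.2 and 81.7 in Ripk3-KO libraries (log2 fold change −0.04, 95% interval −0.49 to 0.41, adjusted p = 0.944). In LK cells it was 291 and 281 in WT against 291 and 372 in Ripk3-KO libraries (0.20, 95% interval −0.24 to 0.65, adjusted p = 0.927). Neither interval reached a 2-fold change. The log2 ratio of Irf8 to Gfi1 within a library was taken on signal + 1, not divided by length. It was 3.94 and 2.51 in WT LSK and 1.03 and 1.57 in Ripk3-KO LSK libraries. In LK libraries it was 2.03 and 2.94 in WT and 4.08 and 3.35 in Ripk3-KO. Mean ratios thus differed between genotypes by −1.93 in LSK and 1.23 in LK cells, without overlap in either population, and with 2 libraries against 2 no permutation test of this could pass. With Irf8 at similar levels, these differences rest on the same Gfi1 values as above and are not separate evidence.

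None of the 7 factors tested in LK cells was called by limma, edgeR or DESeq2, where 0.473% of 13949 genes were called by limma. Of the 7, 2 had an unadjusted p under 0.05 in limma and edgeR alike (Cebpb and Gfi1), beside 915 (limma) and 953 (edgeR) of all genes. The same pair was changed by 2-fold or more, against 5.91% of all genes tested, and in LSK cells only Gfi1 was, against 18.2%. The WT and Ripk3-KO values did not overlap for 4 of 7 factors in LK cells, with Cebpe higher and Cebpd, Spi1 and Gfi1 lower in the Ripk3-KO libraries, where 40% of all genes did not overlap. In LSK cells this held for 2 of 8 factors, Cebpd and Gfi1, both higher in the Ripk3-KO libraries, where 44.6% of all genes did not overlap. Averaged over both populations, no factor was called by limma or edgeR (lowest adjusted p by limma 0.518, for Cebpb), where 1.64% of 15901 genes were called by limma. An unadjusted p under 0.05 was found for 0 of 8 in limma and 1 in edgeR, beside 2156 and 1994 of all genes.

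Cebpb stood out through 1 library. Its signal in LK cells was 53.6 and 1.14 in WT against 1.65 and 0.683 in Ripk3-KO libraries, or 789, 15, 26 and 11 reads. WT LK 1 was thus far above the other LK libraries, and the 2 WT LK libraries differed by 4.67 on the log2 scale, a larger difference than that of any other of the 13949 genes tested. The genotype difference was −2.36 (SE 0.92, adjusted p = 0.537), it was −0.02 without WT LK 1, and without WT LK 2 it was −4.69 and called (adjusted p = 0.0013). In LSK cells Cebpb was even, with a signal of 5.36 and 5.18 in WT against 5.14 and 9.29 in Ripk3-KO libraries (log2 fold change 0.34, adjusted p = 0.886).

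Cebpb is a gene of a single exon on chr2:167688915-167690418 of GRCm38, and 312 of its bases overlap an exon of Tmem189 on the opposite strand. The library kit keeps strand, but the sources used here do not state whether strand was used in counting, so reads of both genes may be mixed. Tmem189, named for this overlap, had a signal of 43.0 in WT LK 1 and 19.0 to 31.2 in the other LK libraries, and its part in the Cebpb value was not tested. The 250 bases upstream of Cebpb (chr2:167688665-167688914, plus strand) are shown for this variable gene. Capitals mark TGACG or its reverse CGTCA, the half-site of cAMP response elements, which occurs 3 times here and at least once in 17.8% of promoter windows.
Cebpb upstream: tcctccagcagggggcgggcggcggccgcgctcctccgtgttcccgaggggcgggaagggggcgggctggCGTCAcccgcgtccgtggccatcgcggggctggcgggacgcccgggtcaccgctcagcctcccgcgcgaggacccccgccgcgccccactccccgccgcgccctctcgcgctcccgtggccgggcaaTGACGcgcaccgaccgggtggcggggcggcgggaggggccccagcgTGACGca

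Cebpd, the cytokine-induced member, differed in opposite directions in the populations without passing the test in either. In LSK cells its signal was 16.1 and 16.4 in WT against 24.5 and 28.1 in Ripk3-KO libraries, all Ripk3-KO values above all WT values (log2 fold change 0.66, SE 0.31, adjusted p = 0.261). In LK cells it was 76.2 and 66.6 in WT against 42.4 and 63.6 in Ripk3-KO libraries, all Ripk3-KO values below all WT values (log2 fold change −0.45, SE 0.31, adjusted p = 0.877). The difference between these effects was 1.11 (SE 0.44, adjusted p = 0.401).

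Cebpe, needed for secondary granules, had an LK signal of 28.6 and 31.1 in WT against 39.9 and 38.4 in Ripk3-KO libraries. The Ripk3-KO values were higher and close together, but the difference did not pass (log2 fold change 0.38, 95% interval −0.53 to 1.29, adjusted p = 0.932). Cebpe in LSK cells was at 5.96 and 10.1 in WT against 4.50 and 9.09 in Ripk3-KO libraries, with overlapping groups (−0.23, adjusted p = 0.817). Cebpe lies on chromosome 14, 1.07 Mb from Ripk3, and the part of this nearness in its values was not tested. Of genes within 10 Mb of Ripk3, with Ripk3 itself left out, 2 of 160 (1.25%) were called in LK cells against 0.457% of the other genes, and 5 of 186 (2.69%) in LSK cells against 2.15%.

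Cebpa, which opens the granulocyte-monocyte path, was not called between the genotypes. Its LSK signal was 13.7 and 5.70 in WT against 6.03 and 5.09 in Ripk3-KO libraries, and WT LSK 1 stood above the other LSK libraries (log2 fold change −0.60, adjusted p = 0.562). In LK cells the signal was 15.9 and 22.6 in WT against 12.1 and 20.9 in Ripk3-KO libraries (−0.24, adjusted p = 0.97). Cebpa has a single exon on chr7:35119293-35121928 of GRCm38. Its upstream window (chr7:35119043-35119292, plus strand) is shown beside that of Cebpb because both are single-exon C/EBP genes. Capitals mark TTGCG, a C/EBP half-site, found in 14.5% of promoter windows and not in the Cebpb window.
Cebpa upstream: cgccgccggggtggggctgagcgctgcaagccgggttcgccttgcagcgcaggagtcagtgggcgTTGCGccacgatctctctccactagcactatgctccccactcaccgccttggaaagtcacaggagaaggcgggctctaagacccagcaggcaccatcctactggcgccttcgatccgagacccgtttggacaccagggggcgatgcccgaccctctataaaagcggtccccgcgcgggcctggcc

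The make-up of C/EBP transcripts was compared as shares of the summed CPM per kb of the 4 genes. Such shares rest on the same exon lengths, on which the order of Cebpe and Cebpd in LK cells depends. The sum was 14.1 to 20.1 CPM per kb in LSK and 55.8 to 97.0 in LK libraries, without overlap. In LSK cells no C/EBP gene held more than 44.8% of the sum, and Cebpb held 19.1% to 26.9%. In LK cells Cebpe held 48.1% of the sum in WT LK 2 and 65.4% and 54.9% in the Ripk3-KO libraries. WT LK 1 differed from these, with 41.9% Cebpb and 27.1% Cebpe, while Cebpb held 0.807% to 2.23% in the other LK libraries. Ratios of gene pairs were taken instead on log2(signal + 1), without division by length, so their sizes do not give relative abundance. The log2 ratio of Cebpe to Cebpa averaged 0.005 ± 0.884 (SD, n = 4) in LSK and 0.937 ± 0.507 in LK libraries, and the difference of −0.93 did not pass (exact permutation test, two-sided, p = 0.143, adjusted over 4 ratios p = 0.267; the smallest p possible was 0.0286). For Cebpa to Cebpb the difference was −1.75 (exact permutation p = 0.2, adjusted p = 0.267), and for Irf8 to Gfi1 −0.84 (exact permutation p = 0.314, adjusted p = 0.314). This last value joins differences of opposite sign, 0.742 in WT and −2.42 in Ripk3-KO cells. When the exact permutation was held within genotype, an alternative added after the data were seen, p was 0.0556 for Spi1 to Gata1, the smallest that it allows, and at least 0.167 for the other ratios.

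**Figure D4:**
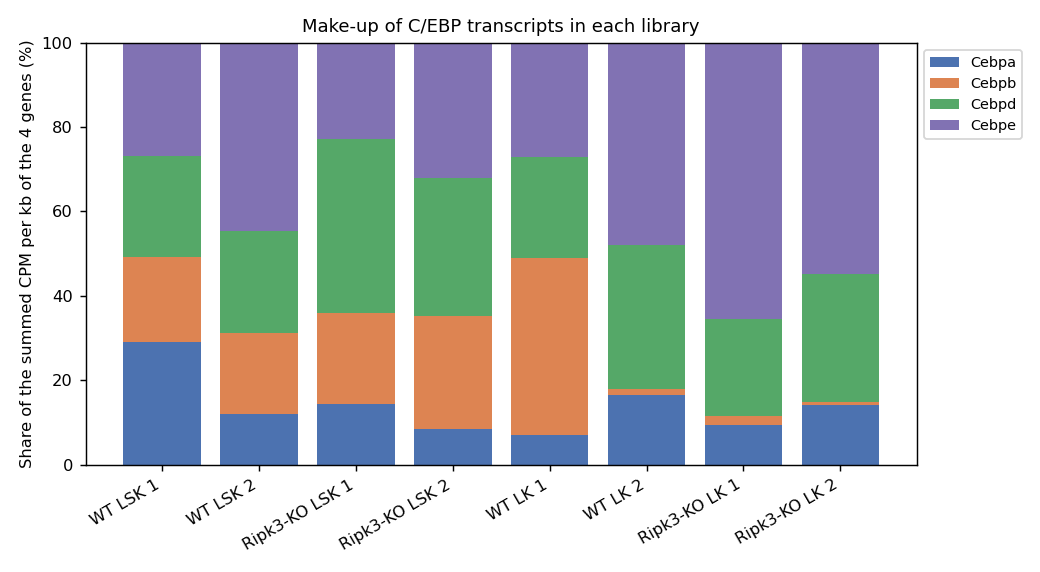
Share of each C/EBP gene (percent of the summed CPM per kb of the 4 genes, vertical axis) in each library (horizontal axis). Cebpb fills 41.9% of the bar of WT LK 1 and 0.807% to 2.23% of the other LK bars.

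Spi1, the gene of PU.1, was not called between the genotypes. Its signal was 135 and 176 in WT LSK, 201.3 and 165 in Ripk3-KO LSK, 324 and 289 in WT LK and 226 and 273 in Ripk3-KO LK libraries. The genotype difference was 0.24 in LSK cells (95% interval −0.17 to 0.64, adjusted p = 0.547) and −0.30 in LK cells (95% interval −0.70 to 0.10, adjusted p = 0.869), and neither interval reached a 2-fold change. Its counterpart Gata1, the erythroid factor, fell in Ripk3-KO LSK cells, from 57.4 and 38.0 in WT to 22.2 and 14.7 (log2 fold change −1.32, adjusted p = 0.0128). The log2 ratio of Spi1 to Gata1 was 1.22 and 2.18 in WT LSK, 3.13 and 3.41 in Ripk3-KO LSK and 0.629 to 1.34 in LK libraries. LSK exceeded LK libraries by 1.40 on average, with 1 LSK library inside the LK range (exact permutation test, two-sided, p = 0.0571, adjusted p = 0.228). The difference was 0.794 in WT and 2.0 in Ripk3-KO cells, and with the exact permutation held within genotype p was 0.0556, the smallest possible there (adjusted p = 0.222). Gata1 is X-linked, which matters here because genotype and sex cannot be told apart.

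Irf4 was too low for comparison. Its signal was 1.39 and 3.21 in WT LSK, 2.57 and 0.489 in Ripk3-KO LSK, 0.340 and 1.91 in WT LK and 1.71 and 0 in Ripk3-KO LK libraries. A count of 0 in Ripk3-KO LK 2 allows a signal of up to 0.186, by counting error only. In LSK cells the genotype difference was −0.46 (95% interval −1.91 to 0.99, adjusted p = 0.769), and no difference was detectable at this depth.

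Genes that these factors are known to switch on were examined next, from a list of 26 granulocytic and a list of 27 monocytic and dendritic target genes. Both lists were chosen with earlier results of these data known, so the counts from them are descriptions only. Of the granulocytic targets, 10 of 26 were called higher and 1, Igsf6, lower in Ripk3-KO than in WT LSK cells, where 0.892% of all genes tested were called higher and 1.27% lower. Their median log2 fold change was 0.60, against −0.01 over all genes, and 9 of the 26 had a negative fold change. In LK cells 6 of 26 were called higher and none lower by limma (5 and 0 by edgeR), where 0.1% of all genes were called higher and 0.373% lower, with a median of 0.36 against 0.01 over all genes. The list count in LK cells was 3 without WT LK 1, Ripk3-KO LK 1, Ripk3-KO LK 2 or the filter on low values, and 0 without the trend in the variance, and in LSK cells it was 4 without the trend and 7 to 10 under the other alternatives.

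Of the genes called higher, those with the lowest p are given here. Ltf, which encodes lactoferrin, was at a signal of 34.8 and 25.8 in WT LSK, 213 and 203 in Ripk3-KO LSK, 35.3 and 36.9 in WT LK and 218 and 228 in Ripk3-KO LK libraries (log2 fold change 2.76, adjusted p = 2.41e-07, in LSK; 2.60, adjusted p = 6.04e-07, in LK). Ngp, a neutrophil granule protein, rose by 2.02 (adjusted p = 3.08e-07) and 2.12 (adjusted p = 2.05e-07) in LSK and LK cells, and Camp, the cathelicidin gene, by 1.98 (adjusted p = 9.74e-06) and 1.74 (adjusted p = 9.95e-05). S100a8, a calcium-binding alarmin gene, rose in LSK cells from 231 and 273 to 624 and 869 (1.55, adjusted p = 1.2e-05). Of primary granule genes, Elane, the neutrophil elastase gene, had a log2 fold change of −0.50 in LSK cells (adjusted p = 0.064). In LK cells it was −0.33 (adjusted p = 0.689). Mpo, the myeloperoxidase gene, was at −0.38 (adjusted p = 0.189) and −0.23 (adjusted p = 0.883). Ctsg, also of primary granules, was at 0.02 in LSK (adjusted p = 0.955) and −0.13 in LK cells (adjusted p = 0.931).

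None of the factors was called higher in LK cells. There Cebpe was at 0.38 and Gfi1 at −1.03 on the log2 scale, against 2.60 for Ltf. Of 10 maturing neutrophil markers, 7 in LSK and 5 in LK cells were called higher, beside 0.892% and 0.1% of all genes, and their summed signal was 713 and 771 in WT LSK, 2350 and 2782 in Ripk3-KO LSK, 785 and 788 in WT LK and 1690 and 1694 in Ripk3-KO LK libraries. The sum and Gfi1 were both higher in Ripk3-KO than in WT LSK cells, while in LK cells the sum was higher and Gfi1 lower, and the part of the sum in the Gfi1 value was not tested. Of the 10 markers, 8 are also in the list of granulocytic target genes, so the lists are not independent.

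Of the monocytic and dendritic targets, 1 of 24 tested in LK cells was called higher and none lower by limma and edgeR alike. Limma called 0.1% of all genes higher and 0.373% lower there. Of the 24, 3 had an unadjusted p under 0.05 by each, beside 915 (limma) and 953 (edgeR) of 13949 genes, with a median of −0.12. In LSK cells 1 of 26 was called lower and none higher by both tools, where limma called 1.27% of all genes lower and 0.892% higher. Of the 26, 2 (limma) and 4 (edgeR) had an unadjusted p under 0.05, beside 3011 and 2165 of 16817 genes, with a median of −0.08. By size, 2 were higher and 1 lower by 2-fold or more in LK cells, beside 445 and 379 of 13949 genes. In LSK cells 1 was higher and 4 lower, beside 1007 and 2053 of 16817 genes. The target called higher in LK cells was Cd74, the invariant chain of MHC class II, with 25.3 and 23.1 in WT against 48.2 and 64.1 in Ripk3-KO LK libraries (1.17, adjusted p = 0.00565). The target called lower in LSK cells was Cd14, the lipopolysaccharide co-receptor, with 19.8 and 13.8 in WT against 3.13 and 3.62 in Ripk3-KO LSK libraries (−2.00, adjusted p = 0.00636).

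Across populations, WT target genes followed the factors in part. Of the granulocytic targets, 15 of 26 were called lower and none higher by limma in LSK than in LK cells of WT mice, where 14.8% of all genes were lower and 9.16% higher, and edgeR called 13 lower and 2 higher. The 15 called lower were led by Mpo (4410 and 4950 CPM in LSK, 62200 and 52900 in LK), Elane and Ctsg, genes of primary granules. Of the monocytic and dendritic targets, 10 of 26 were lower, among them F13a1 (23.6 and 26.3 against 581 and 516 CPM) and Ly6c2, and 4 were higher, among them Cd74 (406 and 439 against 28.8 and 26.0 CPM). In Ripk3-KO cells 14 of 26 granulocytic targets were called lower and none higher by limma in LSK cells (12 and 1 by edgeR), and 10 of 24 monocytic and dendritic targets were lower and 4 higher, beside 12.2% and 7.95% of all genes.

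**Figure D5:**
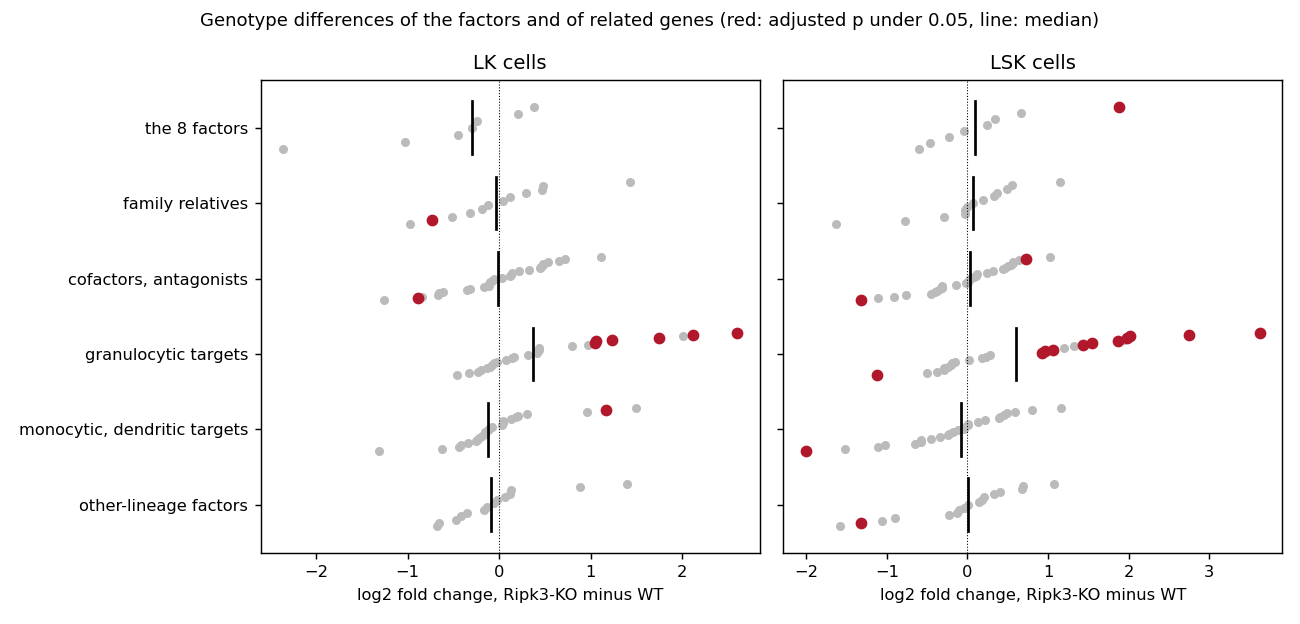
log2 fold change of Ripk3-KO against WT cells (horizontal axis) for each tested gene of the 8 factors and of 5 lists (rows), in LK (left) and LSK cells (right). Red points have an adjusted p under 0.05 in limma and black lines are medians; the granulocytic targets have 6 called higher in LK, and 10 called higher and 1 lower in LSK cells.

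Other members of the same gene families were examined next. Of 13 relatives from the C/EBP, ETS, GFI and IRF families, 1 of 12 tested in LK cells was called lower by limma, where 0.373% of all genes were. In LSK cells 0 of 13 were called by limma or edgeR, where limma called 2.16% of all genes. There 3 of 13 had an unadjusted p under 0.05 by each, beside 3011 (limma) and 2165 (edgeR) of 16817 genes. The one called was Irf1, an interferon-induced factor, at 268 and 280 in WT against 163 and 166 in Ripk3-KO LK libraries (−0.74, adjusted p = 0.045 by limma and 0.0607 by edgeR). In WT cells Irf2 and Irf7 were higher in LSK than in LK cells, the reverse of Irf8, for instance Irf2 at 52.4 and 50.2 against 14.4 and 20.1 CPM (1.54, adjusted p = 0.00121).

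Cofactors and antagonists of the factors showed 1 lower of 28 tested in LK, and 1 higher and 1 lower of 29 in LSK cells. Over all genes, limma called 0.373% lower in LK cells, and 0.892% higher and 1.27% lower in LSK cells. Junb, an AP-1 gene and partner of myeloid differentiation, was at 845 and 689 in WT against 346 and 493 in Ripk3-KO LK libraries (−0.88, adjusted p = 0.0146). Myb, which keeps progenitors immature, was at 263 and 251 in WT against 381 and 480 in Ripk3-KO LSK libraries (0.73, adjusted p = 0.0216), and the gene that fell was Gata1. Among 17 transcription factors of other lineages, 0 of 14 tested in LK cells were called by limma or edgeR, where limma called 0.473% of all genes. Of these 14, 2 had an unadjusted p under 0.05 by each, beside 915 (limma) and 953 (edgeR) of 13949 genes. Gata1 was the 1 of 17 called in LSK cells, where limma called 2.16% of all genes. Klf4, which drives monocytes, was higher in LSK than in LK cells of WT mice (94.7 and 98.7 against 20.8 and 13.1 CPM).

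Markers of other cells were examined beside these counts. Their lists share genes with those above and are not independent of them. Mpo, Elane, Prtn3 and Ctsg are also granulocytic targets, and the monocyte, macrophage and dendritic markers except Adgre1 are also monocytic and dendritic targets. Gata1 is also among the cofactors and the factors of other lineages. Of 8 stem and multipotent progenitor markers, 0 were called in LK cells and 1, Flt3, was called higher in Ripk3-KO LSK cells (555 and 473 in WT, 874 and 886 in Ripk3-KO). In LSK cells 7 of the 8 were higher and 1 lower in Ripk3-KO, with a median log2 fold change of 0.51 (−0.01 over all genes). In each genotype 6 of 8 were higher in LSK than in LK cells, beside 9.16% of all genes in WT and 7.95% in Ripk3-KO cells. Between the genotypes, limma called 0.473% of all genes in LK and 2.16% in LSK cells. No granulocyte-monocyte progenitor marker (5 tested), monocyte, macrophage and dendritic marker (9 in LK and 10 in LSK cells), B and plasma cell marker (5 and 9), T and NK cell marker (4 and 5) or mast cell and basophil marker (6 and 5) was called by limma between the genotypes in either population, and by edgeR 1 was, Elane in LSK cells (adjusted p = 0.0406). Of 6 erythroid markers, 0 were called in LK cells and Gata1 was in LSK cells. Their summed signal was 218 and 173 in WT against 155 and 148 in Ripk3-KO LSK libraries. In LK libraries the sum was 1611 and 1414 in WT against 1056 and 1106 in Ripk3-KO. Most of that LK sum was Car1, at 1243 and 1025 in WT against 830 and 824 in Ripk3-KO. In each population 5 of the 6 had a negative and 1 a positive fold change. The positive one in LSK cells was Hbb-b1, at 7.85 and 11.7 in WT against 22.7 and 34.6 in Ripk3-KO. At an unadjusted p under 0.05 by limma, counts in LK and LSK cells were 2 and 4 for stem and multipotent progenitors. They were 2 and 2 for granulocyte-monocyte progenitors, 0 and 1 for monocytes and 0 and 1 for B cells. For T cells they were 0 and 0, for mast cells 2 and 1, and for erythroid cells 2 and 3. Over all genes such counts were 915 of 13949 in LK and 3011 of 16817 in LSK cells.

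Jchain, an immunoglobulin joining gene of plasma cells, had a signal of 218 to 340 in the 4 LSK and at most 3.11 in the 4 LK libraries. Cd79a, Pax5 and Ebf1, which mark B cells, were at or below 11.15 in all LSK libraries. Irf4 also serves B and plasma cells, and the part of such cells in its LSK values was not tested.

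Finally, the genes whose pattern over the 8 libraries was nearest to each factor were listed, by the root mean square difference of centred log2(CPM + 1) values among 10699 genes (10700 for Irf4) with a mean of at least 5 CPM. The nearest to Spi1 were Farsa (0.09), Noc4l and Polg, and the nearest to Irf8 were Afap1 (0.14), Nucb2 and Ero1l. Cebpd lay nearest to Ncln (0.19), Lrg1 and Tnfaip2, Cebpa to Aars (0.22), Ncam1 and Hlx, and Cebpe to Fam46a (0.23), Mtus1 and Ptgr1. Gfi1 lay farther from its nearest genes, Baiap3 (0.33), Cerk and Prmt6, and Irf4 lay nearest to Srgap3 (0.29), AK081796 and BC006965. Cebpb had no close neighbor, the nearest being Mtch1 (0.66), Thoc4 and Akirin2. These 3 genes shared its high value in WT LK 1, with Thoc4 at 531 CPM there and 21.8 to 33.4 CPM in the other LK libraries, and Mtch1 at 148 against 10.7 to 17.5 CPM.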

How the data were processed

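Bone marrow LSK and LK cells of WT and Ripk3-KO mice were measured by RNA-seq in 4 groups of 2 libraries. The submitters' processing notes name TopHat and mm9, and the counting tool, annotation and use of strand are not given in the sources used here. The authors deposited signal headed FPKM, but dividing each by the value of a single read gave whole reads (tolerance 0.01) for 100% of entries in every library, and the entries equaled CPM with TMM factors of each population. They were therefore used as scaled read counts, with no division by length, and reads were recovered from them. Depth was 9782166 to 16280811 reads per library, and 3 reads, the limit that a count of 0 allows, correspond to a signal of 0.186 to 0.311 (counting error only).

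Genotypes were compared with limma 3.58.1 in R 4.3.3 (lmFit, eBayes with trend) fitted to log2(signal + 1) of the 8 libraries as 4 group means. Populations were compared on log2(CPM + 1) of recovered reads scaled by TMM over all 8 libraries. Fold changes on these scales understate changes of low genes. Log2 ratios of gene pairs within a library used signal + 1, without division by length. Genes with a mean of at least 1 in the libraries of a comparison were tested, p-values were two-sided and adjusted over all of them by Benjamini-Hochberg, and "called" means an adjusted p under 0.05. Adjusted p without a named tool are from limma. Alternatives were edgeR 4.0.16 and DESeq2 1.42.0 on recovered reads, other scalings, filters and pseudocounts, a fit without trend, separate fits, a replicate block and the omission of each library. Scripts were tested on simulated data. Positions are from GENCODE M21 and upstream windows from RefSeq, both on GRCm38, not on mm9. Windows matched 5 of 8 factors (7 windows). Motifs were searched on both strands in 250 bases before each start, and sequence that GENCODE annotates as an exon of the gene is not shown.

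The factors and the gene lists (5 lists of related genes, 8 of cell markers) were chosen with earlier results of these data known. Named are the 8 factors, Ripk3, sex-linked genes, of each list up to 4 genes with the lowest p in each genotype comparison and up to 3 in the WT population comparison, and the 3 genes nearest to each factor. Tmem189 and Igsf6 were named after their values were seen.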

Additional observations from a re-analysis of the deposited data

Results flagged for a closer look

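Gfi1 was set apart because its genotype effect differed between the populations by a test of the difference itself. The effect in LSK cells minus that in LK cells was 2.92 on the log2 scale (SE 0.61, adjusted p = 0.0318 by limma, 0.072 by edgeR and 0.00223 by DESeq2). Signal was higher in Ripk3-KO than in WT cells in both LSK libraries and lower in both LK libraries, where 1 Ripk3-KO library (35.5) lay just under 1 WT library (35.9).

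Cebpd was set apart because both Ripk3-KO libraries lay above both WT libraries in LSK cells and below them in LK cells. The difference of the effects was 1.11 (SE 0.44), and its test did not pass (adjusted p = 0.401 by limma and 0.435 by edgeR).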

How the results depend on the processing

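With 2 libraries per group, calls rested on few values. In LSK cells 1 factor was called (Gfi1) and 0 were called without a filter on low values, without the trend in the variance or with a separate fit of the population, and leaving out each library, with a lone library assumed to vary like the other groups, gave 0 to 1. In LK cells 0 factors were called, and leaving out each library gave 0 to 1, the 1 being Cebpb without WT LK 2, which then was also called on average over both populations (0 to 1). For the interaction 1 factor was called and 0 with a pseudocount of 0.1, without a filter, without the trend or with edgeR, and leaving out each library gave 0 to 2. In Ripk3-KO cells 5 factors differed between LSK and LK cells, 3 with the deposited values, and leaving out each library gave 2 to 5. The number changed by 2-fold or more was 2 in LK cells (0 to 2 without single libraries) and 1 in LSK cells (1 to 2). Numbers of all genes called ranged over the alternatives from 3 to 177 in LK (main 66), 99 to 613 in LSK (363), 38 to 526 on average (260), 2 to 155 for the interaction (57), 1502 to 4116 between populations in WT (3814) and 1489 to 3194 in Ripk3-KO cells (3072). The cause of these shifts was not tested, beyond the smaller number of libraries where one was left out.

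Directions turned for values that were not called. Without single libraries, the LK difference of Cebpa ran from −0.61 to 0.14, the LSK differences from −0.67 to 0.20 for Cebpe, −0.33 to 0.25 for Irf8, −0.029 to 0.71 for Cebpb and −1.09 to 0.17 for Irf4, the mean difference of Cebpb from −2.18 to 0.16, the LSK to LK difference of Cebpb in WT from −3.46 to 1.30 and that of Gfi1 in Ripk3-KO cells from −0.59 to 0.51. The latter was 0.32 with the deposited values and 0.010 with DESeq2 size factors, and the LSK difference of Irf4 was 0.025 after quantile normalization.

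Replicate numbers were not taken as pairs, since correlations of the replicate differences of groups with shared numbers were between −0.145 and −0.0104 where the groups shared a genotype or population (15901 genes). With the replicate block, the number of factors called was 0 in LK cells, 1 in LSK cells, 1 for the interaction, and 5 in each population comparison, as without it.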
